A study of Mus musculus with 8 samples.

Results

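The Schlafen genes are a family of interferon-inducible genes, and the 4 members described here are *Slfn2*, *Slfn5*, *Slfn8* and *Slfn9*, taken by name from the 20308 gene symbols that were counted in CD11b+ cells of the mouse brain. CD11b is a surface integrin of myeloid cells, microglia included, and the cells were pulled down with magnetic beads from the right brain hemisphere of mice aged 14 or 15 days. The 4 CSF1 OE mice carried a transgene for the secreted form of CSF1, a growth factor of macrophages and microglia, which the TRE/tTA system drives in a subset of GFAP+ cells (GFAP is a marker of astrocytes). The 4 control mice are labelled only as controls for CSF1 over-expression, and all 8 mice were C57Bl/6 X CD1 F1 animals, so that 1 parental stock was outbred. Each mouse gave 1 library, and mice are named here by the animal numbers of their labels.

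Schlafen proteins share an N-terminal domain that can bind or cut transfer RNA, and the longer members also carry a helicase-like part. The family is known as a set of type I interferon targets in mouse macrophages and T cells. *Slfn2* is a short member that is needed for the quiescence of T cells and monocytes and that shields transfer RNA from cleavage by angiogenin. *Slfn5*, *Slfn8* and *Slfn9* are long members. The mouse genes arose by duplication, lie side by side apart from one distant relative, and are in part so alike that short reads can fit several of them.

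In CSF1 OE mice the mean level of *Slfn2* was 3.78-fold that of control mice, on a log2 scale 1.92 ± 0.379 (SE, n = 4 each), and it was the largest difference among the members. The difference came with an adjusted p = 0.0558 (edgeR's quasi-likelihood test, Benjamini-Hochberg over 13407 genes) and was not called. *Slfn5*, *Slfn9* and *Slfn8* differed by 0.60, 0.52 and 0.39 on the log2 scale, and none of these was called. A gene was called where the adjusted p was under 0.05 and the fold change under 0.7 or over the inverse of 0.7. By this rule edgeR called 0 of the 4 members, beside 0.44% of all genes tested in either direction. At an unadjusted p under 0.05, 3 of the 4 members were higher in CSF1 OE mice, beside 10.1% of all genes. All 4 had a higher fitted mean, as did 44.8% of all genes, and the median log2 fold change was 0.56 over the members and -0.034 over all genes tested.

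The Schlafen cluster lies on chromosome 11 of the mouse genome (build GRCm38, the build that the submitters name as mm10; GENCODE M21 annotation) and holds 10 Slfn genes within 344 kb, from base 82942341 to base 83286726. *Slfn5* spans chr11:82951349-82964840 on the plus strand, *Slfn9* chr11:82978390-82991830 and *Slfn8* chr11:83002158-83020810 on the minus strand, and *Slfn2* chr11:83065112-83070678 on the plus strand. The distant relative *Slfnl1* lies on chromosome 4.

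The sequence before the start of each member is shown because the family is known for its response to interferon, and motifs of interferon-responsive genes can be looked for there. The sequences are from RefSeq (GRCm38.p6) and are written 5′ to 3′ in the reading direction of each gene. For *Slfn2*, *Slfn8* and *Slfn9* they are the 250 bases before the start. For *Slfn5* only the first 133 bases of that window are given, since the rest overlaps exons of other *Slfn5* transcripts, which begin further upstream, so that the bases shown lie inside the annotated gene. Capitals mark an interferon-stimulated response element (ISRE, searched as GAAANNGAAA) or an ETS-IRF composite element (searched as GGAANNGAAA), which PU.1 and its partner IRF8 can bind in myeloid cells. Both strands were searched, and no match overlapped another.
*Slfn2*, chr11:83064862-83065111 (+): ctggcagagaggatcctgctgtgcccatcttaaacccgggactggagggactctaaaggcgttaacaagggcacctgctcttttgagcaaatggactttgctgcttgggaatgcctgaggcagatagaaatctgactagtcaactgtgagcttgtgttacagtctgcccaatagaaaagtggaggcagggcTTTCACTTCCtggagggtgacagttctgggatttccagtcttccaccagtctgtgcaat
*Slfn5*, chr11:82951852-82951984 (+): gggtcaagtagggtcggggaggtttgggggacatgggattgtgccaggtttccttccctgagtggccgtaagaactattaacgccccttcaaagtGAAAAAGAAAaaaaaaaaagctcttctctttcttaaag
*Slfn8*, chr11:83020811-83021060 (-): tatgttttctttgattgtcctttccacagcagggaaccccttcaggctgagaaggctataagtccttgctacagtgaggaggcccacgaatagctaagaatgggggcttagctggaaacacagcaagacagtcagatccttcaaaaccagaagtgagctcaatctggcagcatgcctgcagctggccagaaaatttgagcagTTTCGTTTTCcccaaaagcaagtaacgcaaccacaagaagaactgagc
*Slfn9*, chr11:82991831-82992080 (-): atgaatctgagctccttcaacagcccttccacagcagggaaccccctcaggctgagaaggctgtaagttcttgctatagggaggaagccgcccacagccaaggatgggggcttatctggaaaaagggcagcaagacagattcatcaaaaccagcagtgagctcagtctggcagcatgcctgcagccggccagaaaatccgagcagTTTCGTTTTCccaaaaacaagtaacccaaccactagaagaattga

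*Slfn8* and *Slfn9* held the same ISRE, TTTCGTTTTC as read along the gene, which began 48 bases before the start of *Slfn8* and 45 bases before that of *Slfn9*. In *Slfn5* the match was GAAAAAGAAA and began 155 bases before the start, within a run of A. *Slfn2* held no ISRE of this spelling in its window. It held an ETS-IRF composite element, TTTCACTTCC on the strand shown, from 59 to 50 bases before the start. An ISRE was found in 2.98% and an ETS-IRF composite element in 2.3% of 32851 promoter windows of the same length. The NF-kB motif, present in 3.9% of the windows, matched in *Slfn9* from 214 to 205 bases before the start and in none of the other members, and the STAT motif TTCNNNGAA, present in 7.02%, matched in none of the 4. The motifs were chosen with the sequences and the values known, and a match or its absence describes only these letters in this window. The windows of *Slfn8* and *Slfn9* were identical at 80.2% of aligned positions, against 47.7% to 51.7% for the other 5 pairs of members.

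CPM values (counts relative to the library total, after edgeR's TMM scaling) are given below for each mouse. In control mice 1827, 1872, 1874 and 1934, *Slfn2* stood at 44.1, 35.9, 56.0 and 33.4 CPM. In CSF1 OE mice 1931, 1932, 1936 and 2019, it stood at 236, 58.3, 193 and 153 CPM. The genotypes did not overlap, but the lowest CSF1 OE mouse, 1932, lay just above the highest control mouse, 1874, while the other 3 CSF1 OE mice lay well above all controls. Means were 42.4 ± 10.2 and 160 ± 76.1 CPM (SD, n = 4 each). Of all genes tested, 6.84% had every CSF1 OE mouse above every control mouse, and *Slfn2* was 1 of the 4 members with this order.

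*Slfn5*, a long member, stood at 27.01, 22.8, 34.5 and 37.2 CPM in the control mice and at 35.6, 44.7, 69.6 and 33.7 CPM in the CSF1 OE mice, in the same order of animals. The genotypes overlapped, as only mice 1932 and 1936 lay above all controls. The difference on the log2 scale was 0.60 ± 0.249 (SE; edgeR adjusted p = 0.275), and without mouse 1936 it was 0.33. Exons of *Slfn5* share 559 bases, 8.84% of its exon length, with exons of *Slfn5os* on the opposite strand. The TruSeq v2 kit keeps no strand, so that reads of *Slfn5* and *Slfn5os* cannot be told apart in that stretch.

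*Slfn8* stood at 41.8, 43.6, 51.3 and 27.5 CPM in the control mice and at 53.4, 35.1, 60.3 and 66.9 CPM in the CSF1 OE mice. As for *Slfn2*, mouse 1932 was the lowest of the CSF1 OE mice, and the other 3 lay above all controls. The log2 difference was 0.39 ± 0.230 (SE; edgeR adjusted p = 0.423), and without control mouse 1934, the lowest of all, it was 0.26.

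*Slfn9*, a neighbour of *Slfn8* and the member most like it, stood at 16.7, 10.4, 11.9 and 15.7 CPM in the control mice and at 15.1, 21.2, 20.7 and 21.4 CPM in the CSF1 OE mice. Here it was mouse 1931 that fell within the control range, while mouse 1932 was among the highest. The log2 difference was 0.52 ± 0.184 (SE; edgeR adjusted p = 0.215). The mouse with the most *Slfn2* was thus the one with the least *Slfn9* among the CSF1 OE mice.

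**Figure D1:**
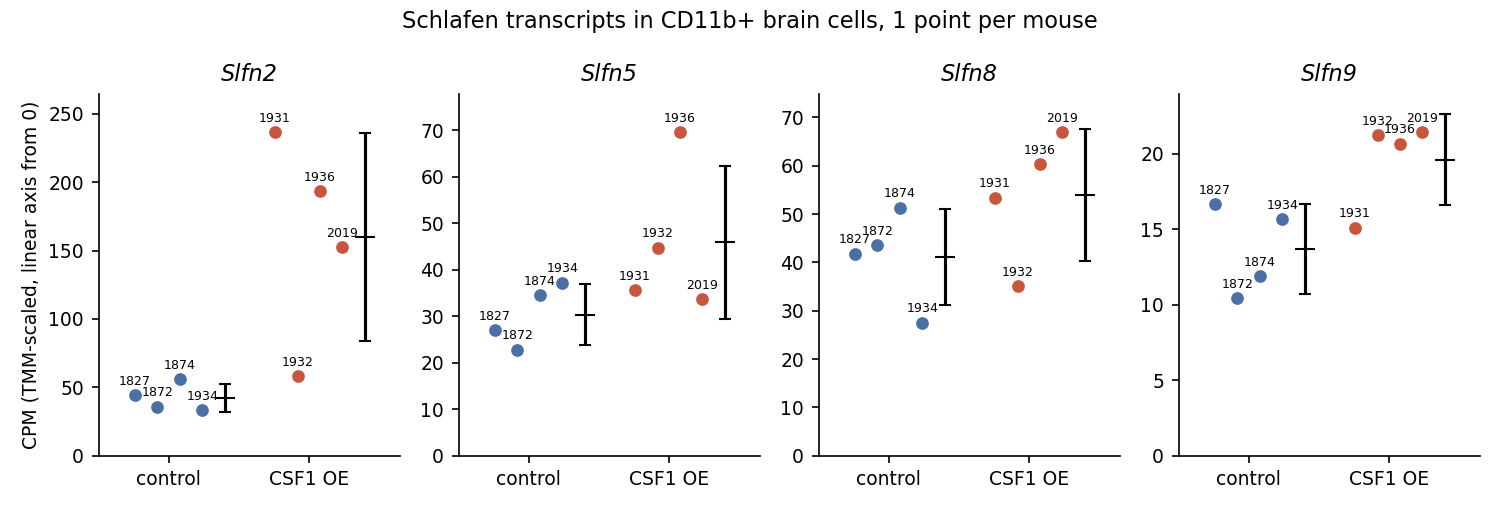
CPM of each member (linear axis from 0) in 4 control and 4 CSF1 OE mice, 1 labelled point per mouse, with the mean and SD of each genotype as a bar. The 2 genotypes do not overlap for *Slfn2*, and 1 CSF1 OE mouse lies among the controls for *Slfn8* (1932) and for *Slfn9* (1931).

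Levels of different genes can be compared only per length. Divided by the exon length of each gene, the mean level in control mice was 25.5 ± 6.13 CPM per kb for *Slfn2*, 10.03 ± 2.43 for *Slfn8*, 4.80 ± 1.05 for *Slfn5* and 2.29 ± 0.499 for *Slfn9* (SD, n = 4). No neighbours in this order overlapped among the control mice, and *Slfn2* ran from 20.1 to 33.7 CPM per kb. In CSF1 OE mice the order of the means was the same, at 96.3 ± 45.7, 13.2 ± 3.35, 7.26 ± 2.61 and 3.29 ± 0.505 CPM per kb. There the ranges of *Slfn8*, which began at 8.59, and of *Slfn5*, which began at 5.33, overlapped. Shares of the counts themselves, not divided by length, give less weight to a short gene such as *Slfn2*. By this measure *Slfn2* gave between 28.4% and 35.6% of all Slfn counts in a control library. It gave 35.3% in mouse 1932, and 54.1%, 55.6% and 68.8% in mice 2019, 1936 and 1931. The 4 members together made up between 96.1% and 99.1% of the Slfn counts of every library.

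Of the other Schlafen genes, *Slfn3* and *Slfn4* passed the filter on low counts, and neither was called. *Slfn3* was at 1.89 ± 0.200 CPM in controls against 2.30 ± 0.415 CPM under CSF1 OE (SD, n = 4 each; log2 difference 0.28, edgeR adjusted p = 0.571). *Slfn4* was at 1.59 ± 0.308 CPM in control mice, and in CSF1 OE mice it spread from 0.575 CPM in mouse 1931 to 3.81 CPM in mouse 2019 (log2 difference 0.23, edgeR adjusted p = 0.848). *Slfn1* had between 2 and 18 counts per library, *Slfn14* at most 1 and *Slfnl1* at most 3, and these 3 were not tested. For *Slfn10-ps* and *Slfn5os* only the annotated exons were used here, and no counts. All 9 Slfn symbols summed gave 132 ± 18.9 CPM in controls against 285 ± 85.2 CPM under CSF1 OE, a log2 difference of 1.11 ± 0.224 (SE; edgeR adjusted p = 0.0585).

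The genes on either side of the cluster serve as a comparison for the locus. Of the 9 nearby tested protein-coding genes reported (*Lig3*, *Rffl*, *Rad51d*, *Nle1* and *Unc45b* on one side, and *Ap2b1*, *Rasl10b*, *1700020L24Rik* and *Mmp28* on the other), 0 of 9 were called by edgeR and 1 had an unadjusted p under 0.05. This was *Mmp28*, a matrix metalloproteinase gene, which was lower in CSF1 OE mice (log2 difference -0.54, edgeR adjusted p = 0.142). Log2 differences of the 9 ran from -0.54 to 0.11, below those of all 4 members.

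**Figure D2:**
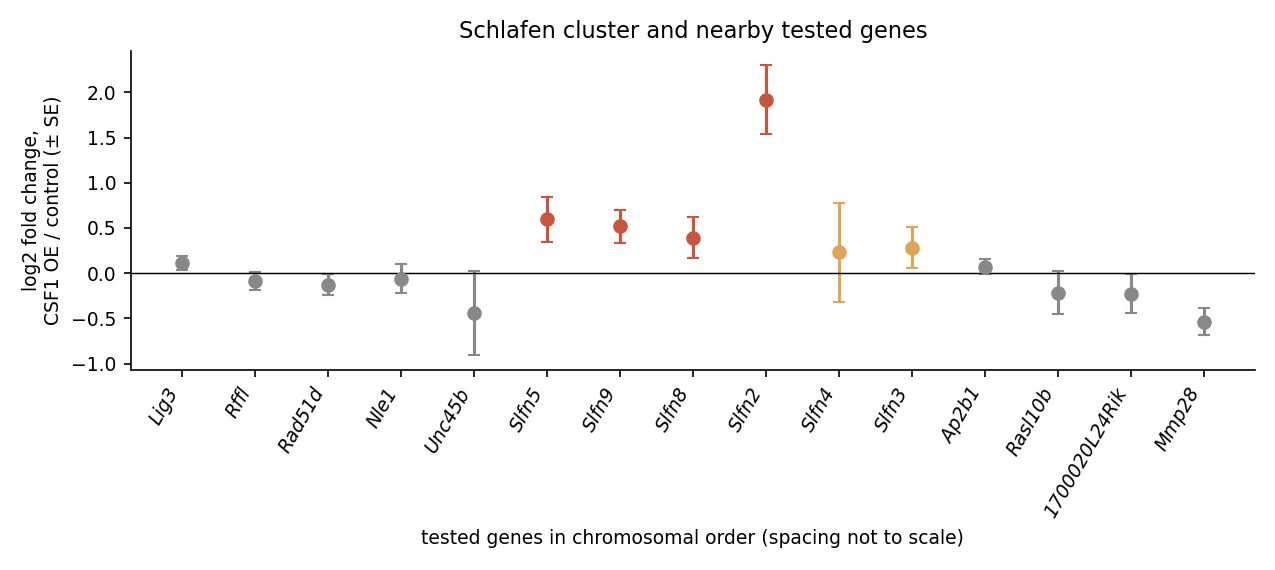
Log2 fold change with its SE for the tested Slfn genes (members in red, *Slfn3* and *Slfn4* in yellow) and 9 nearby tested protein-coding genes (grey), in chromosomal order. *Slfn2* stands at 1.92, the other Slfn genes between 0.23 and 0.60, and the neighbours between -0.54 and 0.11.

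How far the counts of paralogs can be told apart was described on transcript sequences of the cluster. The longest transcript of each member was cut into every window as long as 1 read. Each window was compared with all transcripts of the other genes. The reads came in pairs, and the second read of a pair was not taken into account. For *Slfn8*, 1.03% of the windows were identical to a window of another Slfn gene, 33.9% differed by at most 5 bases and 68.1% by at most 10. For *Slfn9* these shares were 2.53%, 22.7% and 40.0%. The windows matched those of the other gene of this pair and of the pseudogene *Slfn10-ps*. For *Slfn2* no window was identical to another, and 12.1% lay within 5 mismatches of *Slfn3* or *Slfn4*, which were counted at far lower levels. *Slfn5os*, whose overlap with *Slfn5* is given above, was not among the genes compared. Against the other genes of the cluster, no window of *Slfn5* came closer than 27 mismatches.

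The expected count of *Slfn9* was not a whole number in 7 of 8 libraries, that of *Slfn8* in 5, that of *Slfn2* in 4 and that of *Slfn5* in 3. The values of *Slfn8* and *Slfn9* rest on how RSEM divided such reads and are uncertain to that extent. Windows within 5 mismatches of *Slfn10-ps* made up 28.8% of *Slfn8* and 21.1% of *Slfn9*. No count of *Slfn10-ps* was used here, and whether its reads were counted under *Slfn8* or *Slfn9* was not tested, which holds for both genes and for their sum. The sum of *Slfn8* and *Slfn9*, free of the division between this pair, was 54.7 ± 8.53 CPM in controls against 73.5 ± 14.1 CPM under CSF1 OE (SD, n = 4 each). The sum differed by 0.43 ± 0.160 on the log2 scale (SE; edgeR adjusted p = 0.238) and was not called either.

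**Figure D3:**
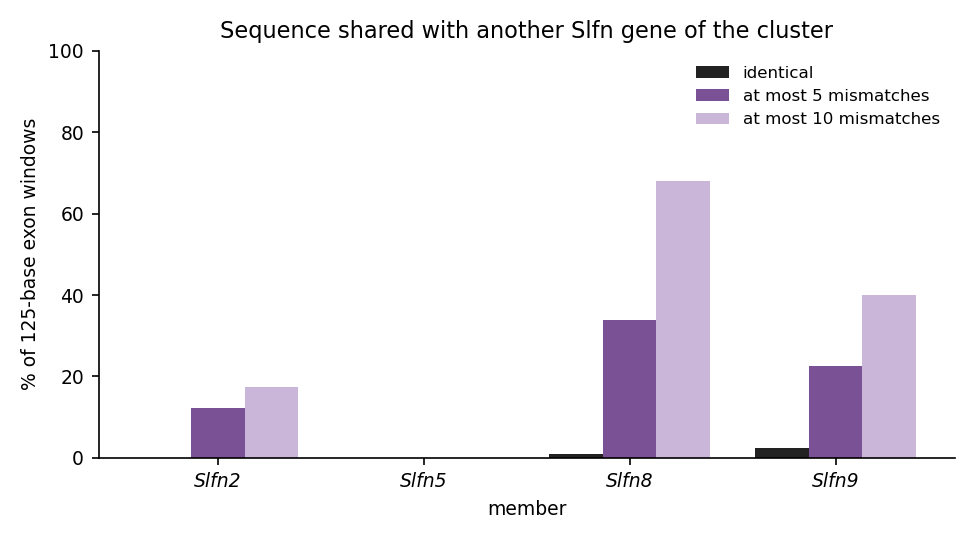
Share of all windows of 1 read length in the longest transcript of each member (y axis, %), by likeness to a window of another Slfn gene of the cluster. Bars give windows that are identical, or within 5 or 10 mismatches. *Slfn8* reaches 68.1% within 10 mismatches and *Slfn9* 40.0%, while *Slfn5* has none. The antisense gene *Slfn5os* was left out of the comparison.

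Whether the members changed unequally was tested on their log2 ratio within each mouse, for all 6 pairs. *Slfn2* relative to *Slfn8* was 0.051 ± 0.236 in control and 1.435 ± 0.612 in CSF1 OE mice (SD, n = 4 each), a difference of 1.38 with no overlap between genotypes. The two-sided exact permutation test gave p = 0.0286, the smallest that 4 mice against 4 allow, and p = 0.171 after adjustment over 6 pairs. Relative to *Slfn5* and to *Slfn9*, *Slfn2* was higher by 1.21 and 1.24 in CSF1 OE mice, with overlap (exact permutation, adjusted p = 0.229 for both). The ratios among *Slfn5*, *Slfn8* and *Slfn9* differed by 0.17, 0.030 and -0.14 between genotypes (exact permutation, adjusted p = 0.914 for each). No pair passed after adjustment, for which at least 4 of the 6 pairs would have needed the smallest p.

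After removing the mean of each genotype, log2 CPM of *Slfn2* and *Slfn8* had a Pearson r of 0.74 (Spearman rho 0.55) over the 8 libraries, and the other 5 pairs ran from -0.37 for *Slfn2* and *Slfn9* to 0.36 for *Slfn5* and *Slfn9*. These are descriptions over 8 libraries that share depth and preparation. Among all genes, the 5 closest to *Slfn2* by this measure were *Mamdc4* (r = 0.98), *Actr1a*, *Bcl2a1d* (r = 0.96), *Arglu1* and *Cdk2*. *Bcl2a1d* encodes a BCL2-related survival protein and is a known target of NF-kB. For *Slfn5* they were *Tmem51*, *Aldh1l1*, *Eif2b1*, *Gpx7* and *Pecam1*, with r from 0.97 to 0.99. *Pecam1* marks endothelial cells and some leukocytes. For *Slfn8* they were *Slc10a7*, *Glt8d1*, *Zfp110*, *Hsd17b1* and *Dnlz*, and for *Slfn9* *Cdc25a*, *Parpbp*, *Slc25a12*, *Pop4* and *Pcp4*. *Cdc25a* encodes a phosphatase that drives entry into S phase. Each set of 5 was picked as the highest among all tested genes, which makes r high by selection, and no chance level was computed. Some had few counts, *Mamdc4* 24 to 41 and *Hsd17b1* 2 to 17 per library. The roles given for single genes describe those genes only.

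The genes through which interferon acts give the setting of the members. Interferons themselves were near the limit of detection: 7 of 10 interferon genes had 0 counts in every library, no interferon gene exceeded 8 counts, and none was tested. Of 13 receptors and signal transducers, 13 were tested and 0 called by edgeR, with 5 higher and 0 lower at an unadjusted p under 0.05 and a median log2 difference of 0.15. The largest was *Irf7*, the factor that amplifies type I interferon responses, at 1.96 (edgeR adjusted p = 0.0558), and the lowest *Irf3* at -0.32 (edgeR adjusted p = 0.387). Of 7 feedback genes, all were tested and only *Isg15*, which encodes a ubiquitin-like modifier, was called (log2 difference 1.85, edgeR adjusted p = 0.0431). *Usp18*, the protease that removes it, had the largest difference at 2.08 (edgeR adjusted p = 0.0558), and *Socs3*, an inhibitor of cytokine signaling, the lowest at -0.42 (edgeR adjusted p = 0.372).

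Of 28 interferon-induced effectors, 27 were among the counted symbols, and all 27 were tested. CSF1 OE mice had more of all 27 at an unadjusted edgeR p under 0.05, beside 10.1% of all genes. Their log2 differences ran from 0.45 (*Herc6*) to 2.63 (*Ifi44*), with a median of 0.97. edgeR called 4 of them, beside 0.388% of all genes called as higher. These were *Ifit1*, *Dhx58*, *Eif2ak2* and *Zbp1*, at 1.85, 1.45, 0.91 and 2.06 with adjusted p from 0.0365 to 0.0431, and they encode sensors and effectors of viral nucleic acid. Against this list *Slfn2* lay above the median and the 3 long members lay below it.

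Mouse by mouse, *Slfn2* and the effectors had different profiles. The mean log2 CPM of the 27 effectors stood 1.70 above the control mean in mouse 1936, 1.39 in mouse 1932, 0.93 in mouse 1931 and 0.92 in mouse 2019. *Slfn2* stood 2.22, 0.49, 2.51 and 1.87 above its control mean in the same order of mice. Mouse 1932, second among the CSF1 OE mice for the effectors and for *Irf7* (22.5 CPM), was thus the lowest for *Slfn2* and *Slfn8*. *Slfn5* had the order of the effectors in the CSF1 OE mice. It stood at 1.22 above its control mean in mouse 1936, 0.58 in mouse 1932, 0.25 in mouse 1931 and 0.18 in mouse 2019. The mean of 10 endothelial markers had the same order, at -0.21, -0.49, -0.73 and -1.49 from its control mean. In control mice *Slfn5* and the effectors had different orders. Control mouse 1934 was the highest for *Slfn5* (0.32) and the endothelial markers (0.37) but the lowest for the effectors (-0.28). What sets these orders was not tested.

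A list of 16 NF-kB feedback and target genes was written after these values had been seen. The edgeR results given below describe its genes and are no test of the list. Its mean log2 CPM stood 0.90 above the control mean in mouse 1931, 0.60 in mouse 2019, 0.46 in mouse 1936 and -0.029 in mouse 1932, so that, as for *Slfn2*, mouse 1932 was lowest and mouse 1931 highest. *Tnf*, which encodes the cytokine TNF, stood at 148, 97.4, 124 and 81.6 CPM in the control mice and at 364, 132, 354 and 274 CPM in CSF1 OE mice 1931, 1932, 1936 and 2019. For *Tnf*, mouse 1932 lay within the control range. Other genes of the list had another order: mouse 1932 was the highest of the CSF1 OE mice for the chemokine genes *Ccl3*, at 248 CPM, and *Ccl4*, at 308 CPM. The list also holds *Bcl2a1d*, named above as close to *Slfn2*, and *Tnf* was picked after its values were seen. The related genes *Bcl2a1a*, *Bcl2a1b* and *Bcl2a1d* each count in the list mean. All of them had mouse 1931 highest and mouse 1932 lowest among the CSF1 OE mice, and whether they share reads was not tested. Of the 16 genes, 0 were called by edgeR and 6 were higher at an unadjusted p under 0.05, beside 10.1% of all genes. The highest was *Bcl2a1a* (log2 difference 1.85, edgeR adjusted p = 0.0558) and the lowest *Ccl4* (-0.44, edgeR adjusted p = 0.414).

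**Figure D4:**
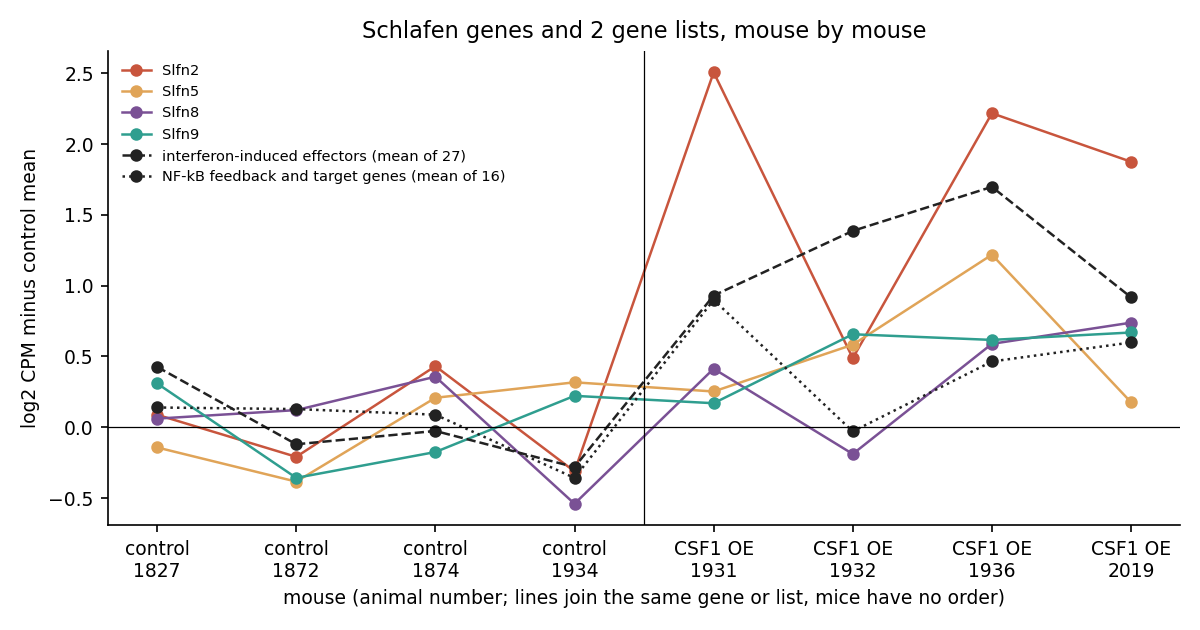
Log2 CPM minus the control mean (y axis) in each of the 8 mice (x axis) for the 4 members, for the mean of 27 interferon-induced effectors and for the mean of 16 NF-kB feedback and target genes; lines only join values of 1 gene or list. Mouse 1932 stands at 0.49 for *Slfn2* and -0.029 for the NF-kB list but at 1.39 for the effectors. The NF-kB list was written after these values had been seen and holds *Bcl2a1d*, one of the genes closest to *Slfn2*.

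Genes tied to the known roles of *Slfn2* gave the following values. Of 11 symbols of the pathway that makes transfer RNA fragments, 6 were tested and 0 called by edgeR, with 0 at an unadjusted p under 0.05. *Ang*, which encodes angiogenin, was at 34.4 ± 6.11 CPM in controls against 32.8 ± 6.52 CPM under CSF1 OE (SD, n = 4 each). The largest difference in this list was that of its inhibitor *Rnh1* (log2 difference 0.27, edgeR adjusted p = 0.319). Of 15 genes of quiescence and proliferation, edgeR called 1, *Pcna*, a clamp of DNA replication (log2 difference 0.55, edgeR adjusted p = 0.0499). At an unadjusted edgeR p under 0.05, 4 of the 15 were higher in CSF1 OE mice and 1 was lower. Of all genes, 10.1% were higher and 6.44% lower at that threshold. *Top2a*, a topoisomerase of dividing cells, had the largest difference (0.78, edgeR adjusted p = 0.174), and *Tob1*, a brake on proliferation, the lowest (-0.46, edgeR adjusted p = 0.335).

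*Csf1* itself was at 282 ± 98.7 CPM in controls against 322 ± 107 CPM under CSF1 OE (SD, n = 4 each; log2 difference 0.19, edgeR adjusted p = 0.796), and reads of the transgene and of the endogenous gene were not told apart. Its receptor gene *Csf1r* was at 9722 ± 2240 and 10091 ± 1454 CPM. Total rounded counts per library ran from 12053259 to 15475465. The members had between 151 and 2879 counts per library, so that the spread between libraries, not counting error, set the width of the errors above.

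Markers of the cells that a CD11b pull-down can hold were measured beside the members, and in RNA of whole cell fractions fewer cells of a type cannot be told apart from less RNA per cell. Microglia genes defined the libraries, as the 10 markers summed to between 20771 and 35855 CPM in controls against 27400 to 39099 CPM under CSF1 OE, with 0 of 10 called by edgeR. Their log2 differences ran from -0.23 for *P2ry12* to 0.60 for *Aif1*. Of 10 endothelial markers, 4 were lower at an unadjusted p under 0.05, beside 6.44% of all genes, and 0 were called. Their sum was 968 to 1525 CPM in controls against 452 to 1034 CPM under CSF1 OE, and log2 differences ran from -1.03 for *Vwf* to -0.38 for *Pecam1*. Of 8 border macrophage markers, 6 were lower at an unadjusted p under 0.05 and 0 were called, with sums of 1581 to 2505 and 1266 to 1884 CPM and differences from -1.11 for *Cd163* to -0.16 for *Lyve1*. The part of these shifts in the differences of the members was not tested.

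Blood leukocytes can also express Schlafen genes. Monocyte markers summed to 75.0 to 119 CPM in controls against 70.3 to 112 CPM under CSF1 OE, with 0 of 7 tested genes called. Most of this sum was *Ace*, at 71.1 CPM in controls against 45.2 CPM under CSF1 OE, so that the sum says little of the others. At an unadjusted edgeR p under 0.05, 2 of the 7 were higher and 1 was lower, beside 10.1% and 6.44% of all genes. The highest was *Plac8* (log2 difference 1.70, edgeR adjusted p = 0.0948) and the lowest *Ly6c2* (-0.84, edgeR adjusted p = 0.330). Neutrophil markers summed to 55.8 to 143 and 29.3 to 231 CPM, with 0 of 8 called, from *S100a8* at 0.36 to *Mmp9* at -0.65. T and NK cell markers were near 0: *Themis* and *Ncr1* had 0 counts in every library, no gene of the list exceeded 25 counts, and the sums were 1.30 to 1.59 CPM in controls against 1.91 to 2.66 CPM under CSF1 OE. The single tested gene, *Klrb1c*, was at 0.430 ± 0.178 and 1.25 ± 0.535 CPM (SD, n = 4 each; edgeR adjusted p = 0.134). B cell markers summed to 7.93 to 19.7 and 12.2 to 16.3 CPM, *Pax5* had 0 counts in every library, and the tested gene *Cd79b* differed by -0.11 (edgeR adjusted p = 0.854).

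The choice of mice and of the fit bears on the call of *Slfn2*. Without mouse 1932 the log2 difference of *Slfn2* was 2.20 and the gene was called (edgeR adjusted p = 0.0148), in a fit that called 0.133% of all genes. DESeq2 also called it, at 1.92 (adjusted p = 2.44e-05), and called 3.14% of its genes and none of the other members. The mice fall into those numbered 1931 to 1936, 1 control and 3 CSF1 OE, and the rest, 3 control and 1 CSF1 OE, and the labels do not say that these numbers mark a batch. Within both sets the mean of *Slfn2* was higher in CSF1 OE mice, by 2.05 and 1.77 on the log2 scale, and that of *Slfn8* by 0.81 and 0.56. The differences within the sets were 0.37 and 0.28 for *Slfn5* and 0.26 and 0.74 for *Slfn9*. In each set 1 genotype had a single mouse, so that each of these differences rests on that mouse. With a term for the set, edgeR called *Slfn2* at 2.01 (adjusted p = 0.0300) and *Slfn8* at 0.70 (adjusted p = 0.0479), 2 of the 4 members beside 9.5% of all genes in that fit.

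**Figure D5:**
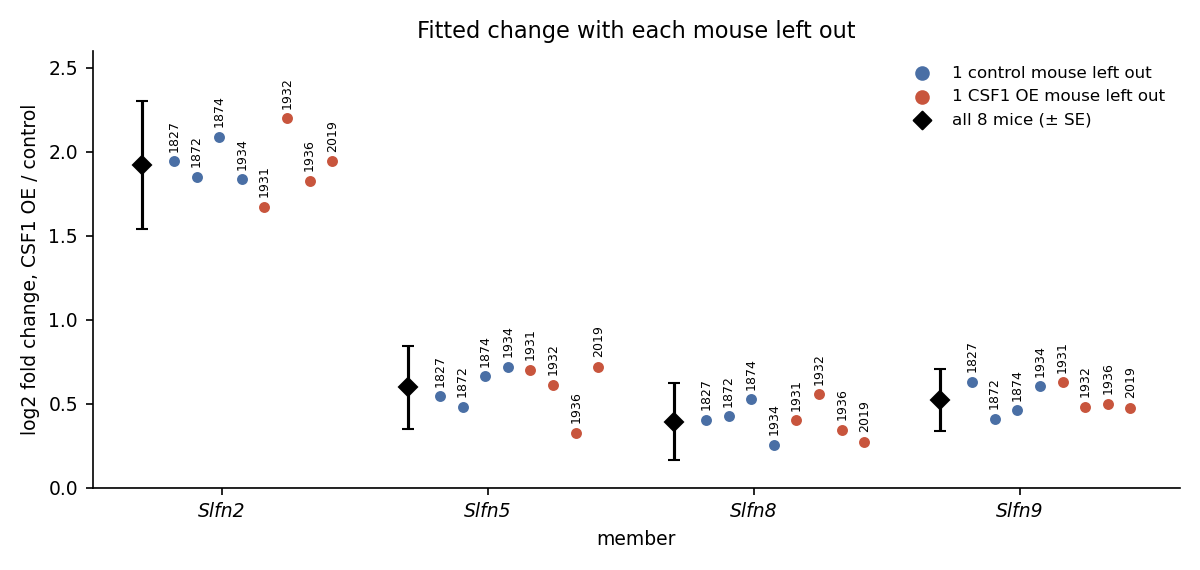
Fitted log2 fold change of each member with all 8 mice (diamond, with its SE) and with each mouse left out in turn (points, labelled with the animal left out). *Slfn2* stays between 1.67 and 2.20, and no other member goes above 0.72.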

How the data were processed

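RNA of CD11b+ cells was measured in 1 library per mouse, 4 control and 4 CSF1 OE. The authors mapped 2 x 125 base reads from 1 lane with Bowtie 1.0.0 and estimated expected counts per gene symbol with RSEM 1.2.7 (build mm10 per the labels), which were deposited without normalization. RSEM divides reads that fit several genes between them. The authors also deposited a signal, the expected counts times 1 factor per mouse, used only as an alternative. The annotation and strand setting are not given in the sources used here.

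Expected counts were rounded and tested over 13407 genes in R 4.3.3 with edgeR 4.0.16 (TMM, filterByExpr, glmQLFit, glmQLFTest), since the authors' EBSeq was not run. Log2 CPM used a prior count of 2. The SE of an edgeR log2 difference was derived as its absolute value divided by the square root of the quasi-likelihood F. Ratios of members were tested by exact permutation over 70 assignments. Alternatives were DESeq2 1.42.0, limma 3.58.1 on the authors' signal, other factors and filters, a robust prior, unrounded counts, a term for animal numbers, summed paralogs and each mouse left out. The methods were tested on simulated data. Positions, exons and transcripts came from GENCODE M21, and promoters from RefSeq, which held all 4 members.

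The members and the lists were chosen with earlier results of these data known, and the NF-kB list after the values described here were seen. Named genes are the members and other Schlafen symbols, the gene with the largest and the lowest difference of each list, *Csf1* and *Csf1r*, the 5 genes most like each member, and the 5 tested protein-coding neighbours on each side. A few genes that this rule names are not reported here. Called genes of a list, *Ace*, *Ang*, *Tnf*, *Ccl3*, *Bcl2a1b* and markers with 0 counts were named after their values were seen. The p-values set a difference between genotypes against the spread between single mice.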

Additional observations from a re-analysis of the deposited data

Results flagged for a closer look

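In CSF1 OE mice, *Slfn9* in mouse 1931 stood at 15.1 CPM, apart from the other 3 mice, the nearest of which had 20.7 CPM. This gap was 0.878 of the range of the group, above Dixon's 95% limit for 4 samples. Of 12 groups looked at, 6 tested Slfn genes in each genotype, this was the 1 that stood out, and chance gives about 1 in 20. Without mouse 1931 the log2 difference of *Slfn9* was 0.63.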

How the results depend on the processing

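No member changed direction under any alternative. *Slfn2* was called in 3 of 18 alternatives, by DESeq2 (1.92), with the term for animal numbers (2.01) and without mouse 1932 (2.20), and *Slfn8* in 1 of 19, with the term for animal numbers (0.70). *Slfn5* and *Slfn9* were called in none. The number of members called was 1 with DESeq2, 2 with the term for animal numbers and from 0 to 1 when each mouse was left out; it stayed at 0 in the other alternatives, without the fold threshold among them. With each mouse left out, the log2 difference ran from 1.67 to 2.20 for *Slfn2*, from 0.33 to 0.72 for *Slfn5*, from 0.26 to 0.56 for *Slfn8* and from 0.41 to 0.63 for *Slfn9*. Over all alternatives adjusted p ran from 2.44e-05 to 0.195 for *Slfn2*.

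Of 54 alternatives of the pair ratios, none passed after adjustment, and 6 reversed a ratio near 0, all with a mouse left out: *Slfn5* to *Slfn8* without mouse 1932 (-0.031), *Slfn5* to *Slfn9* without mouse 1827 (-0.12) or 1936 (-0.16), and *Slfn8* to *Slfn9* without mouse 1872 (0.019), 1874 (0.037) or 1932 (0.095). With each mouse left out these 3 ratios ran from -0.031 to 0.46, from -0.16 to 0.20 and from -0.39 to 0.095. The cause was not tested. No paired analysis was possible because the genotypes share no animal number.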
